A study of Mus musculus with 9 samples.

Results

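The genes described here are 34 genes of the oligodendrocyte lineage, the glial lineage that makes myelin in the brain. They were found in a table of 24487 rows by their gene symbols, and every symbol named 1 row. Of the 34, 27 are genes of myelin and of oligodendrocytes that make it, and 7 are genes of oligodendrocyte precursors. The RNA-seq table covers 4 libraries of dopaminergic neurons from the midbrain and 5 libraries of whole midbrain, all from mice of the C57BL/6 strain background. The labels name no age, sex, transgene or treatment, and how RNA of the dopaminergic neurons was separated is left unsaid. The name bacTRAP, which stands for the capture of tagged ribosomes from a chosen cell type, appears in the title of the deposited table. No label ties the libraries to separate animals, so the p-values below reflect the spread among libraries, part of which may be technical.

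Oligodendrocytes wrap axons in layers of their own membrane, and the compacted layers are myelin. Precursor cells carry the receptor PDGFRA and the proteoglycan NG2 and divide. On differentiation they switch on myelin proteins, enzymes of myelin lipid synthesis and transcription factors such as MYRF. In the midbrain, the fibre tracts around and through the dopaminergic nuclei are rich in these cells, while the dopaminergic neurons themselves do not make myelin.

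Levels are FPKM, fragment counts scaled to transcript length and to library size, so they can be compared between genes. The test was limma on log2(FPKM + 1) over the 13106 genes that averaged 1 FPKM or more, with Benjamini-Hochberg adjustment over all of them and a threshold of 0.05. Log2 changes are on that scale, dopaminergic neurons minus whole midbrain, and they understate the change of genes with low values. The neuronal markers fitted the labels. Th, the rate-limiting enzyme of dopamine synthesis, averaged 1619 ± 121 FPKM in dopaminergic neurons (SD, n = 4) and 47.2 ± 2.84 FPKM in whole midbrain (SD, n = 5). Estimated depth was 47.2 to 62.6 megareads in dopaminergic libraries and 8.15 to 33.6 megareads in whole midbrain libraries, a rough figure from a few single-exon genes. Whole midbrain library 2 stood apart. Its correlation with the other whole midbrain libraries over all genes tested was 0.903 to 0.906, while those 4 correlated at 0.947 to 0.962 with each other. Between 97.7 and 99.3 percent of whole midbrain values, and 0 percent of dopaminergic values, have more than 6 significant digits. The isolation of the RNA and this form of the values both go with the groups, so their parts in any difference cannot be told apart from that of the cell type.

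All 34 genes passed the filter on low values. In dopaminergic neurons 33 of the 34 were lower than in whole midbrain and 0 were higher, against 36.0 percent of all genes tested that were lower and 38.3 percent that were higher. The adjusted p-values of the 33, from limma, ran from 8.2e-10 for Bcas1 to 0.00176 for Bmp4. The exception was the transcription factor gene Nkx6-2. For these 33 genes every dopaminergic library lay below every whole midbrain library, which was so for 31.8 percent of all genes tested. Every library was also rescaled to the same sum over genes other than small RNA and mitochondrial genes (TPM). With TPM, 58.6 percent of all genes tested were lower and 15.8 percent were higher, and the median log2 change of all genes was -0.60. All 34 genes were then lower. On the log2(FPKM + 1) scale, the median log2 change was -2.29 over the 27 myelin genes and -1.19 over the 7 precursor genes, beside 0.04 over all genes tested. In bulk RNA, fewer cells of a type and less RNA per cell cannot be told apart.

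**Figure D1:**
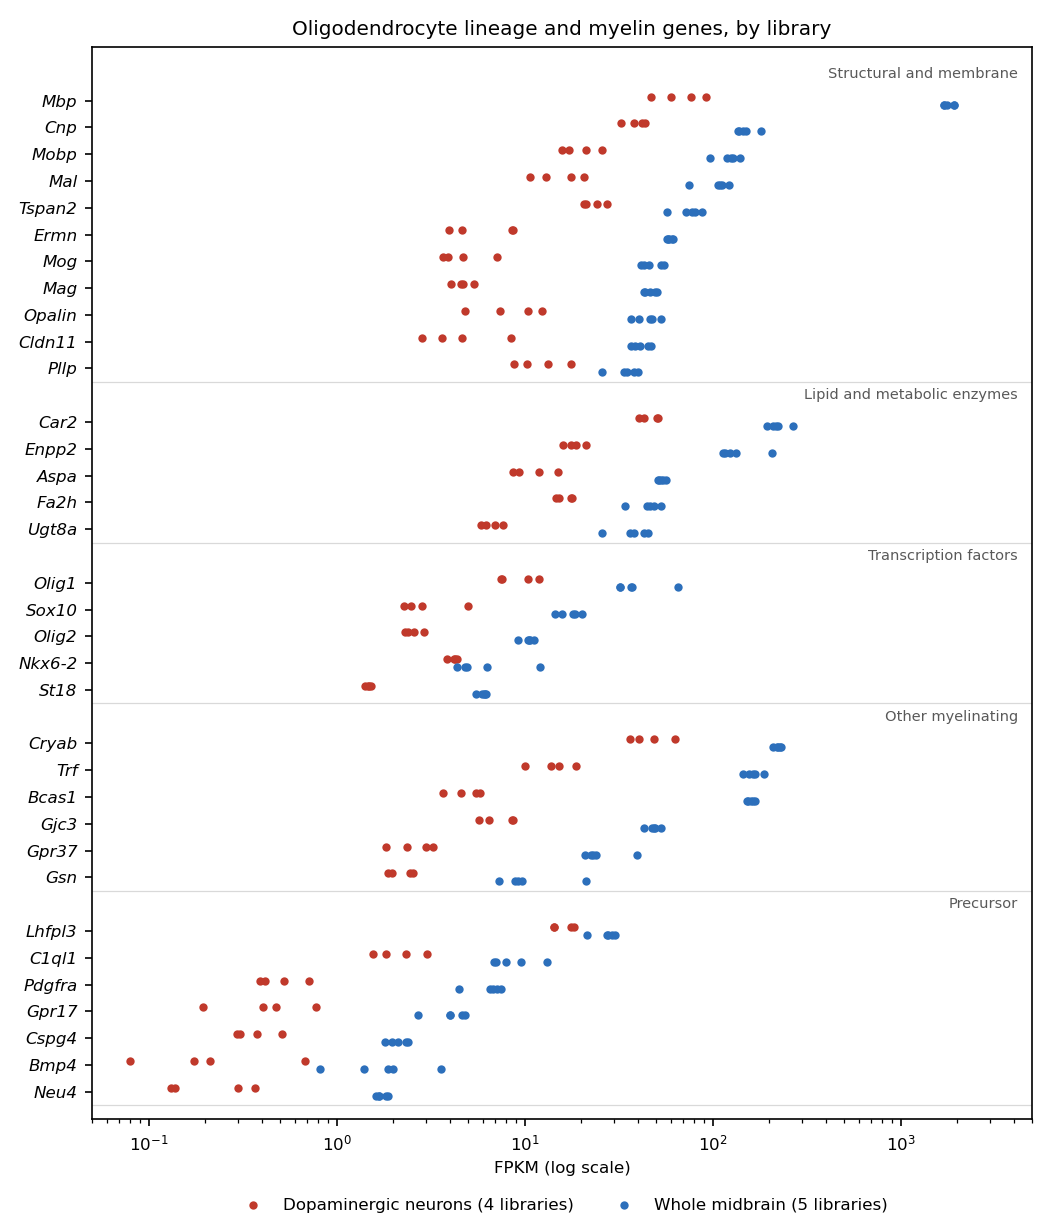
FPKM (logarithmic axis) of the 34 genes, grouped by role, with 1 point for each of the 4 dopaminergic libraries (red) and 5 whole midbrain libraries (blue). The dopaminergic points lie below the whole midbrain points for 33 genes and overlap them for Nkx6-2.

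Summed over the 34 genes, FPKM came to 348, 457, 380.1 and 527 in dopaminergic libraries 1 to 4, against 3834, 3858, 3578, 3713 and 3984 in whole midbrain libraries 1 to 5. As a share of all FPKM in the library, that was 0.0688, 0.0902, 0.0730 and 0.101 percent in the dopaminergic libraries, against 1.23, 0.943, 1.15, 1.19 and 1.29 percent in whole midbrain. No gene was at 0 in any library. Each gene is also given below as the percent of its whole midbrain level that was left, its FPKM in a dopaminergic library over the mean of the 5 whole midbrain libraries. At most 25 percent was left for 28 of the 34 genes, 22 of them myelin genes and 6 precursor genes, against 10.8 percent of all genes tested. At least 50 percent was left for Nkx6-2 and Lhfpl3, against 77.9 percent of all genes tested.

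The percent left ran from 3.07 for Bcas1 to 64.2 for Nkx6-2, and promoters of genes with low and with high values are printed to show what stands before their starts. RefSeq's table for GRCm38.p6, the same assembly as mm10, held promoters for 22 of the 34 genes. It held none for Bcas1, Mbp and Trf, the myelin genes with the lowest percent left. Of the myelin genes whose sequence could be printed, Mag, Gpr37 and Mog had the lowest percent left and Tspan2, Pllp and Nkx6-2 the highest. Mobp was added after its motifs had been counted. The 250 bases before the start lie at chr7:30914864-30915113 for Mag, chr6:25689981-25690230 for Gpr37, chr17:37023399-37023648 for Mog, chr8:94696243-94696492 for Pllp and chr7:139582798-139583047 for Nkx6-2, all on the minus strand. They lie at chr9:120149492-120149741 for Mobp and chr3:102734520-102734769 for Tspan2, on the plus strand. Capitals mark ACAAAG or ACAATG, core motifs bound by SOX proteins, and CATATG or CAGATG, E-boxes of the kind bound by OLIG proteins, each searched on both strands.
Mag: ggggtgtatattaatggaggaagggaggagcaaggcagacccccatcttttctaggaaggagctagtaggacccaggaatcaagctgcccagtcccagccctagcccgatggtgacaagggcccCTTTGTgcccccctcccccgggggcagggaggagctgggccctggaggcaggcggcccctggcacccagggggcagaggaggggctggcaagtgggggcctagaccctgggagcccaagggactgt
Gpr37: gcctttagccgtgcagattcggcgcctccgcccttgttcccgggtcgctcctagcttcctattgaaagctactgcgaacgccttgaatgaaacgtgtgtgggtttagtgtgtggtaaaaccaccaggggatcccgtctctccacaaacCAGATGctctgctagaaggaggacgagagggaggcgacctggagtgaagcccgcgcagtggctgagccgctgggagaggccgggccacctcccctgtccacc
Mog: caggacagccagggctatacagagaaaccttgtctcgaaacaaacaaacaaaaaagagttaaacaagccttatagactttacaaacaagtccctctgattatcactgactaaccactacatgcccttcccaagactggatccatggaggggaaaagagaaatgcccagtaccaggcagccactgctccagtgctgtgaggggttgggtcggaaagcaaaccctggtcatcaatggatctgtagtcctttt
Mobp: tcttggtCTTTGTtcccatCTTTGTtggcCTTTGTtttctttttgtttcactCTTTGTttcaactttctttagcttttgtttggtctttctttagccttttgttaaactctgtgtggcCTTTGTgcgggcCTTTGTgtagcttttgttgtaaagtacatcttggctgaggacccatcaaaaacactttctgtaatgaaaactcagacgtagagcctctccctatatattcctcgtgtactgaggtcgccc
Tspan2: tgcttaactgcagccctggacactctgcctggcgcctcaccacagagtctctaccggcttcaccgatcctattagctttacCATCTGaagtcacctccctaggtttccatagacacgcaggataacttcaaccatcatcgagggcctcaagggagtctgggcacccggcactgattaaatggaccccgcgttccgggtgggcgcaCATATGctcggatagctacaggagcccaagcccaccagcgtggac
Pllp: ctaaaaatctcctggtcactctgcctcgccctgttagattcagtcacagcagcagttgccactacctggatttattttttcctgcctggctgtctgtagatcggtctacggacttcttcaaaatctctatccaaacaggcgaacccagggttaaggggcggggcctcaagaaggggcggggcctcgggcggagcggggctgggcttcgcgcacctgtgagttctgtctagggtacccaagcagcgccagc
Nkx6-2: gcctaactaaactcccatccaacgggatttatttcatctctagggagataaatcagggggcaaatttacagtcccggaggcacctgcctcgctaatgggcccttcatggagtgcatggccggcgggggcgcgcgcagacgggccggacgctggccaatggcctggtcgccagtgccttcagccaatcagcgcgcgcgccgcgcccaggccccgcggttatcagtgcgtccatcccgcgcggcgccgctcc

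A SOX motif stood 126 bases before the start of Mag, and 6 stood before that of Mobp, between 243 and 120 bases away. Distances are counted from the end of the printed window. For Mag that end, at 30914864, lies upstream of the gene span given below, which ends at 30914832. An E-box stood 102 bases before the start of Gpr37, and Tspan2 had E-boxes at 169 and 45 bases. None of these motifs was found in the windows of Mog, Pllp and Nkx6-2. Over the 22 promoters, 6 (27.3 percent) held a SOX motif and 6 (27.3 percent) an E-box, against 25.2 and 17.3 percent of 32851 promoters in the table. A match is a string of letters and not a site that was shown to be bound. The printed genes with low and with high percent left both held windows with and without one.

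The 11 genes of myelin's proteins all fell in dopaminergic neurons, with a median log2 change of -2.71, and kept between 3.84 and 36.2 percent of the whole midbrain level. Mbp, myelin basic protein, which holds the cytoplasmic faces of the membrane together, lies at chromosome 18, 82475123 to 82585637 (mm10). It had the highest level of the 34 genes in whole midbrain. Mbp was at 47.2, 76.8, 60.3 and 92.3 FPKM in dopaminergic libraries 1 to 4, against 1913, 1706, 1703, 1771 and 1919 FPKM in whole midbrain libraries 1 to 5. The groups lay far apart and dopaminergic libraries 2 and 4 were the higher of the 4. On the log2 scale the change was -4.73 ± 0.17 (SE; adjusted p = 9.1e-09, limma), and 3.84 ± 1.09 percent was left (SD, n = 4). Mobp, myelin-associated oligodendrocyte basic protein (chromosome 9, 120149742 to 120176091), was at 15.8, 21.2, 17.2 and 25.9 FPKM in dopaminergic libraries, against 125, 97.2, 119.5, 129 and 139 FPKM in whole midbrain. Again dopaminergic libraries 2 and 4 were above 1 and 3, and no value overlapped whole midbrain. Its log2 change was -2.56 ± 0.15 (SE; adjusted p = 1.7e-07, limma), and 16.4 ± 3.70 percent was left (SD, n = 4).

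The genes for the glycoproteins of myelin's outermost and innermost surfaces fell to like levels. Mog, the glycoprotein of the outermost myelin surface (chromosome 17, 37010740 to 37023398), was at 3.69, 4.68, 3.91 and 7.15 FPKM in dopaminergic libraries, against 45.9, 55.2, 43.3, 41.8 and 53.1 FPKM in whole midbrain. Mag, the adhesion protein that faces the axon (chromosome 7, 30899183 to 30914832), was at 4.72, 4.60, 4.04 and 5.39 FPKM in dopaminergic libraries, against 50.6, 46.6, 43.9, 43.2 and 49.4 FPKM in whole midbrain. The groups did not overlap for either gene, and dopaminergic library 4 was highest for both. Log2 changes were -3.09 ± 0.16 for Mog (SE; adjusted p = 8.0e-08, limma) and -3.07 ± 0.09 for Mag (SE; adjusted p = 1.9e-09, limma), with 10.2 ± 3.32 and 10.03 ± 1.19 percent left (SD, n = 4 each). Cnp, the cyclic nucleotide phosphodiesterase of the cytoplasmic channels in myelin (chromosome 11, 100574939 to 100581739), was at 32.5, 43.8, 38.3 and 42.3 FPKM in dopaminergic libraries, against 146, 181, 136, 138 and 151 FPKM in whole midbrain. Here the dopaminergic values lay within a narrow band that was well under the lowest whole midbrain value. Its log2 change was -1.91 ± 0.11 (SE; adjusted p = 1.9e-07, limma), and 26.1 ± 3.34 percent was left (SD, n = 4), more than for Mbp in every dopaminergic library. Exons of Cnp overlap Dnajc7 on the opposite strand by 154 bases, and the labels do not tell whether reads were counted by strand.

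The other 6 genes of this role fell as well. Cldn11, the tight junction claudin of myelin, averaged 4.89 ± 2.47 FPKM in dopaminergic neurons and 41.8 ± 4.28 FPKM in whole midbrain. Ermn, a cytoskeletal protein of late oligodendrocytes, averaged 6.47 ± 2.51 FPKM in dopaminergic neurons and 59.1 ± 1.82 FPKM in whole midbrain. Both kept close to 11 percent of the whole midbrain level, 11.7 ± 5.90 for Cldn11 and 11.0 ± 4.25 for Ermn (SD, n = 4 each). Mal, a proteolipid of membrane sorting, kept 14.7 ± 4.24 percent, and Opalin, a glycoprotein of oligodendrocyte membranes, kept 19.5 ± 7.40 percent. Tspan2, a tetraspanin, and Pllp, plasmolipin, kept the most, at 31.2 ± 4.12 and 36.2 ± 11.3 percent. Pllp was at 8.78, 10.3, 13.3 and 17.7 FPKM in dopaminergic libraries, against 38.4, 25.9, 33.9, 35.0 and 39.9 FPKM in whole midbrain. Its groups did not overlap, and dopaminergic library 4 and whole midbrain library 2 came closest to each other (log2 change -1.43 ± 0.19, SE; adjusted p = 5.8e-05, limma). Exons of Pllp overlap Gm45767 on the opposite strand by 1128 bases, and those of Ermn overlap Galnt5 by 237.

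The 5 genes of myelin lipids and related enzymes fell too, with a median log2 change of -2.23. Ugt8a makes galactosylceramide, the main glycolipid of myelin. It was at 6.25, 6.93, 5.86 and 7.65 FPKM in dopaminergic libraries, against 38.0, 25.95, 36.4, 45.2 and 43.2 FPKM in whole midbrain. The 4 dopaminergic values were close together and all under the lowest whole midbrain value, that of library 2 (log2 change -2.32 ± 0.15, SE; adjusted p = 3.4e-07, limma). Fa2h adds the 2-hydroxyl group of myelin's fatty acids. It was at 14.7, 15.2, 17.7 and 17.8 FPKM in dopaminergic libraries, against 48.7, 34.1, 44.8, 46.5 and 53.4 FPKM in whole midbrain. With 35.9 ± 3.54 percent left (SD, n = 4), Fa2h stood above Ugt8a, with 17.7 ± 2.09 percent, in all 4 dopaminergic libraries. Aspa, the enzyme that splits N-acetylaspartate from neurons into acetate for lipid synthesis, averaged 11.2 ± 2.89 FPKM in dopaminergic neurons and 53.42 ± 2.204 FPKM in whole midbrain. Car2, carbonic anhydrase 2, averaged 46.4 ± 5.35 FPKM in dopaminergic neurons and 222 ± 27.9 FPKM in whole midbrain. Aspa kept 21.0 ± 5.42 percent and Car2 kept 20.9 ± 2.41 percent (SD, n = 4 each).

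Enpp2, autotaxin, which makes lysophosphatidic acid, is known from oligodendrocytes and from the choroid plexus. It was at 15.97, 18.9, 17.6 and 21.2 FPKM in dopaminergic libraries, against 117, 207, 113, 133 and 124 FPKM in whole midbrain. Whole midbrain library 2 was far above the other 4, and no dopaminergic value came near any of them. The log2 change was -2.82 ± 0.17 (SE; adjusted p = 2.1e-07, limma), and without whole midbrain library 2 it was -2.66. The summed level of the 7 choroid plexus and ependymal markers was 2.97 to 4.24 FPKM in dopaminergic libraries, against 4.19, 24.4, 14.1, 154 and 5.55 FPKM in whole midbrain libraries 1 to 5. Of these 7, 3 passed the filter and 2 were lower. Folr1, a defining marker, was listed at 0 in dopaminergic libraries 2 and 3 and in whole midbrain library 1. The sum in whole midbrain library 4 was mostly Ttr, at 146 FPKM. Folr1, Tmem212 and Ccdc153 were highest of the whole midbrain libraries in library 2, at 0.466, 10.2 and 3.95 FPKM, the library with high Enpp2. The rest of the list was highest elsewhere. Ttr, Kl and Clic6 peaked in whole midbrain library 4, the last 2 at 1.46 and 0.727 FPKM, and Foxj1 in library 3, at 3.86 FPKM. Any part of these cells in the Enpp2 level was not tested.

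Of the 5 transcription factor genes, 4 fell, with a median log2 change of -1.69 over the 5. Sox10, the factor that drives myelin genes in the lineage (chromosome 15, 79154913 to 79164490), was at 2.29, 2.86, 2.49 and 5.01 FPKM in dopaminergic libraries, against 18.5, 20.1, 15.8, 14.5 and 18.2 FPKM in whole midbrain. Dopaminergic library 4 was well above the other 3 and still under every whole midbrain library (log2 change -2.18 ± 0.17, SE; adjusted p = 1.4e-06, limma). Olig2, which specifies the lineage and is kept through its stages, was at 2.40, 2.32, 2.57 and 2.90 FPKM in dopaminergic libraries, against 9.20, 10.4, 11.3, 10.7 and 10.6 FPKM in whole midbrain. Both groups were tight and separate (log2 change -1.69 ± 0.08, SE; adjusted p = 5.2e-08, limma), and 24.4 ± 2.47 percent was left (SD, n = 4). Olig1, its neighbour on chromosome 16, was at 7.54, 10.5, 7.52 and 11.9 FPKM in dopaminergic libraries, against 36.6, 65.8, 32.3, 32.3 and 37.4 FPKM in whole midbrain. Again the highest whole midbrain value was that of library 2; the log2 change was -1.99 with it and -1.80 without it. St18, a zinc finger factor, was at 1.47, 1.52, 1.49 and 1.42 FPKM in dopaminergic libraries, against 6.25, 5.48, 6.13, 6.08 and 5.95 FPKM in whole midbrain. The 4 dopaminergic values were close together, and 24.7 ± 0.736 percent was left (SD, n = 4).

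Nkx6-2, a homeodomain factor of myelinating oligodendrocytes that is also known from neural progenitors, was the exception (chromosome 7, 139579376 to 139582797). It was at 3.85, 4.26, 4.197 and 4.39 FPKM in dopaminergic libraries, against 6.32, 12.1, 4.35, 4.81 and 4.92 FPKM in whole midbrain. The groups overlapped, since dopaminergic library 4 was above whole midbrain library 3. Its log2 change was -0.45 ± 0.23 (SE; adjusted p = 0.102, limma), and without whole midbrain library 2 it was -0.23 (adjusted p = 0.0532). With TPM it was -1.14 and passed the test (adjusted p = 0.00024). Exons of Nkx6-2 overlap Inpp5a on the opposite strand by 246 bases.

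The last 6 myelin genes have other roles in oligodendrocytes, and all fell, with a median log2 change of -2.73. Bcas1, a protein of myelin-forming cells (chromosome 2, 170346991 to 170427845), was at 3.70, 5.80, 4.59 and 5.50 FPKM in dopaminergic libraries, against 160.2, 169, 154, 152 and 163 FPKM in whole midbrain. It had the lowest percent left of the 34 genes, 3.07 ± 0.596 (SD, n = 4), and the groups were far apart (log2 change -4.78 ± 0.11, SE; adjusted p = 8.2e-10, limma). Exons of Bcas1 overlap Bcas1os1 on the opposite strand by 440 bases. Trf, transferrin, the iron carrier that oligodendrocytes make in the brain, was at 10.1, 15.3, 13.8 and 18.8 FPKM in dopaminergic libraries, against 164, 189, 145, 157 and 169 FPKM in whole midbrain. Its groups did not overlap, with 8.79 ± 2.19 percent left (SD, n = 4), although its exons share 2108 bases with Gm20425 on the same strand. Gjc3, connexin 29, kept 15.1 ± 3.09 percent, and Cryab, a small heat shock protein also known from astrocytes, kept 21.2 ± 5.23 percent (SD, n = 4 each). Exons of Cryab overlap Hspb2 on the opposite strand by 252 bases.

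Gpr37, a receptor of differentiating oligodendrocytes, is also known from dopaminergic neurons. It was at 2.36, 3.002, 1.83 and 3.27 FPKM in dopaminergic libraries, against 21.0, 39.5, 22.5, 23.1 and 23.9 FPKM in whole midbrain. All 4 dopaminergic values lay far under the lowest whole midbrain value, and 10.1 ± 2.49 percent was left (SD, n = 4). The 6 dopaminergic markers, none at 0, summed to 3646 to 4057 FPKM in dopaminergic libraries and 205 to 237 FPKM in whole midbrain, and all 6 were higher. Its log2 change was -2.88 ± 0.19 (SE; adjusted p = 3.5e-07, limma), and -2.72 without whole midbrain library 2. Gsn, gelsolin, an actin-severing protein, was at 1.97, 1.87, 2.46 and 2.54 FPKM in dopaminergic libraries, against 8.90, 21.1, 7.29, 9.27 and 9.65 FPKM in whole midbrain. Whole midbrain library 2 was again the highest by far, and the log2 change of -1.84 became -1.61 without it.

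The 7 precursor genes all fell, but most were low in whole midbrain, where their sum was 48.7 to 55.4 FPKM, against 18.9 to 21.4 FPKM in dopaminergic libraries. Lhfpl3 made up most of the sum in the dopaminergic libraries. Pdgfra, the PDGF receptor that defines precursors (chromosome 5, 75152291 to 75198204), was at 0.414, 0.523, 0.393 and 0.709 FPKM in dopaminergic libraries, against 6.83, 4.46, 7.10, 7.50 and 6.55 FPKM in whole midbrain. All 4 dopaminergic values were under 1 FPKM, and whole midbrain library 2 was the lowest of its group. For Pdgfra the log2 change was -2.30 ± 0.14 (SE; adjusted p = 1.9e-07, limma), and 7.86 ± 2.23 percent was left (SD, n = 4). Cspg4, the NG2 proteoglycan, was at 0.379, 0.296, 0.510 and 0.304 FPKM in dopaminergic libraries, against 1.96, 1.82, 2.40, 2.35 and 2.11 FPKM in whole midbrain. Its groups were apart at these low levels, with 17.5 ± 4.66 percent left (SD, n = 4).

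Pdgfra is also a gene of fibroblasts and Cspg4 one of mural cells. The 6 fibroblast markers, none at 0 in any library, summed to 4.28 to 10.7 FPKM in dopaminergic libraries, against 16.3 to 95.4 FPKM in whole midbrain, and the 5 that passed the filter were all lower. The 7 mural markers, also none at 0, summed to 2.53 to 4.84 FPKM in dopaminergic libraries, against 64.2 to 111 FPKM in whole midbrain, and all 7 were lower. The part of these cells in the levels of Pdgfra and Cspg4 was not tested.

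Gpr17, a receptor of cells about to differentiate, was at 0.195, 0.475, 0.406 and 0.780 FPKM in dopaminergic libraries, against 3.99, 2.70, 4.66, 4.03 and 4.84 FPKM in whole midbrain. Neu4, a sialidase, averaged 0.234 ± 0.118 FPKM in dopaminergic neurons and 1.74 ± 0.115 FPKM in whole midbrain. The groups of both genes were apart, and Gpr17 kept 11.5 ± 5.99 percent and Neu4 13.5 ± 6.78 percent (SD, n = 4 each). C1ql1, a secreted C1q-like protein that neurons also make, averaged 2.19 ± 0.637 FPKM in dopaminergic neurons and 8.89 ± 2.58 FPKM in whole midbrain. Bmp4, a secreted signal that holds back oligodendrocyte differentiation, was at 0.0794, 0.175, 0.211 and 0.679 FPKM in dopaminergic libraries, against 1.40, 3.60, 0.814, 2.004 and 1.88 FPKM in whole midbrain. Dopaminergic library 4 nearly reached whole midbrain library 3, and the call on Bmp4 (log2 change -1.15 ± 0.25, SE; adjusted p = 0.00176, limma) was lost under quantile normalization (-0.44, adjusted p = 0.141). Without whole midbrain library 2, Neu4 and Bmp4 fell under the filter and the other 5 precursor genes were all still lower.

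Lhfpl3, a tetraspan membrane protein used as a precursor marker, differed from the other precursor genes in level (chromosome 5, 22746193 to 23275597). It was at 18.3, 17.7, 14.3 and 14.4 FPKM in dopaminergic libraries, against 30.1, 21.4, 27.8, 27.3 and 29.3 FPKM in whole midbrain. The groups did not overlap, and dopaminergic libraries 1 and 2 were above 3 and 4. Its log2 change was -0.71 ± 0.12 (SE; adjusted p = 0.00029, limma), and 59.5 ± 7.91 percent was left (SD, n = 4). Among the other precursor genes, the percent left ran up to 24.6 ± 7.16, for C1ql1. Exons of Lhfpl3 overlap A930003O13Rik on the opposite strand by 567 bases.

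**Figure D2:**
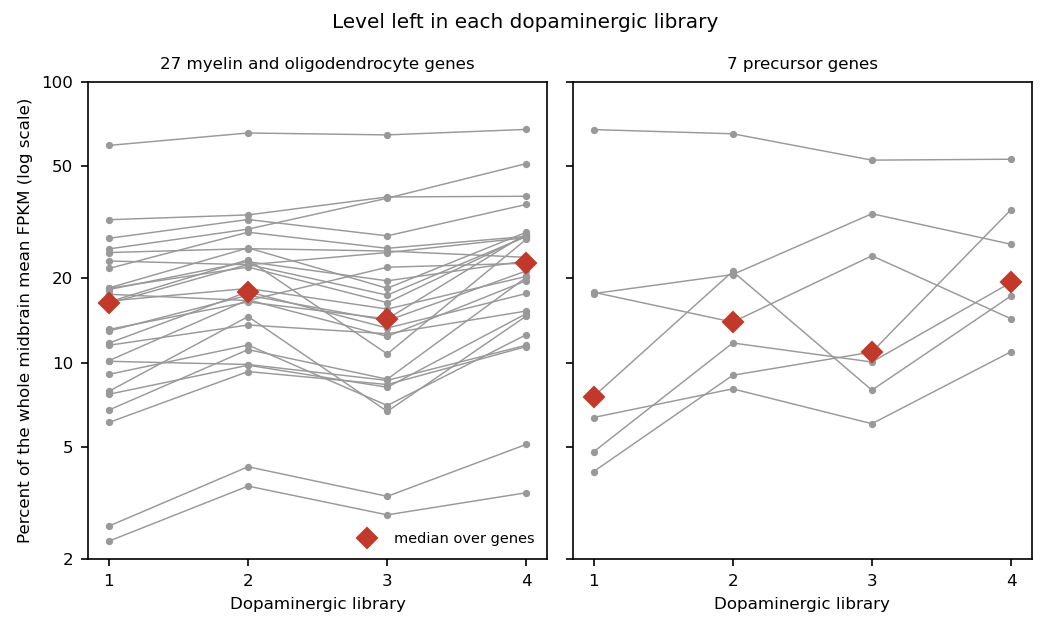
Percent of the whole midbrain mean FPKM (logarithmic axis) in each dopaminergic library for the 27 myelin genes and the 7 precursor genes; lines join the points of 1 gene, since libraries have no order, and diamonds are medians. Nkx6-2 (left) and Lhfpl3 (right) lie above 50 percent in all 4 libraries, and the lowest lines are those of Bcas1 and Mbp.

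The percent left differed among the myelin genes by more than it differed between libraries for many pairs. Of the 351 pairs of the 27 myelin genes, 205 (58.4 percent) had ranges over the 4 dopaminergic libraries that did not overlap. This share was not counted for pairs of other genes, so it is not read as a trait of myelin genes. The ranges also leave out the spread of the whole midbrain libraries. The ratio of Mbp to Mobp was 2.99, 3.62, 3.50 and 3.57 in dopaminergic libraries, against 15.3, 17.5, 14.3, 13.7 and 13.8 in whole midbrain. That of Mbp to Cnp was 1.45, 1.76, 1.57 and 2.18 in dopaminergic libraries, against 13.1, 9.45, 12.5, 12.8 and 12.7 in whole midbrain. The ratio of Bcas1 to Cnp was 0.114, 0.133, 0.120 and 0.130 in dopaminergic libraries, against 1.10, 0.935, 1.13, 1.10 and 1.08 in whole midbrain. The ratios of the groups did not overlap for any of these 3 pairs, which were chosen after their values were seen. Across the 34 genes, which are not independent replicates and share the same libraries, the mean level in dopaminergic neurons went with that in whole midbrain (Spearman's rho 0.87). Across the 27 myelin genes, the percent left and the whole midbrain level had a rho of -0.39, and the percent left and exonic length one of -0.29. The whole midbrain level is also the denominator of the percent left, which by itself pulls the first rho toward negative values. It is thus not read as a trait of these genes.

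The dopaminergic libraries also differed from each other. The median percent left over the 27 myelin genes was 16.3, 17.9, 14.3 and 22.6 in libraries 1 to 4, and over the 7 precursor genes 7.57, 13.9, 10.9 and 19.3. With TPM the median over the myelin genes was 10.1, 11.1, 8.68 and 14.0, and the mean over the 4 libraries was 11.0 for myelin genes and 7.89 for precursor genes, against 17.7 and 12.9 with FPKM. Dopaminergic library 4 had the highest level of 23 of the 27 myelin genes, against 27.8 percent of all genes tested. Libraries 2 and 4 were both above 1 and 3 for 21 of the 27, against 18.5 percent of all genes tested. Among the 7 precursor genes that order held for 3. Th was at 1722, 1541, 1722 and 1491 FPKM in dopaminergic libraries 1 to 4, so it was lower in libraries 2 and 4. The part of this in the myelin levels was not tested. The 6 dopaminergic markers summed to 4057, 3703, 4034 and 3646 FPKM in these libraries. The median percent left was also higher in libraries 2 and 4 than in 1 and 3 for the astrocyte, microglial, endothelial and other-neuron lists, whose values are given below. The fibroblast list and that of other mature genes kept this order too, so it was not one of the myelin genes alone. It did not hold for the mural list, at 3.10, 3.15, 4.18 and 6.08 percent. Nor did it hold for the further lipid, precursor and newly formed oligodendrocyte lists described below. The 11 astrocyte markers summed to 169, 179.9, 184 and 195 FPKM, most of it from Aldoc, at 141, 148, 157 and 158 FPKM. Within whole midbrain, library 2 was above the other 4 for 17 of the 34 genes and below them for 11, against 45.3 and 36.1 percent of all genes tested.

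Further genes of the lineage were read from lists that were, like the 34, chosen with earlier results of these data known. Their counts stand beside 36.0 percent of all genes tested that were lower and 38.3 percent that were higher. Of 42 other genes of mature oligodendrocytes, 40 passed the filter, and 36 of these were lower in dopaminergic neurons and 1 was higher, with a median log2 change of -2.02. The largest change was that of Zfp488, a zinc finger regulator of oligodendrocyte maturation, which averaged 0.807 ± 0.226 FPKM in dopaminergic neurons and 117 ± 19.96 FPKM in whole midbrain (log2 change -6.02; adjusted p = 1.0e-09, limma). Plekhb1 followed, at 21.7 ± 5.96 FPKM in dopaminergic neurons and 339 ± 18.2 FPKM in whole midbrain. The higher gene was Tppp3, a tubulin polymerization protein that neurons also make, at 133 to 148 FPKM in dopaminergic libraries and 37.6 to 75.4 FPKM in whole midbrain. Sirt2, Tppp and Gamt did not pass the test, with log2 changes of 0.11, 0.08 and -0.21. Of these, Sirt2 encodes a deacetylase and Tppp another tubulin polymerization protein, and Gamt makes creatine.

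Of 11 further genes of myelin lipid metabolism, 9 were lower and 0 were higher, with a median log2 change of -0.86. Cers2, the synthase of ceramides with very long chains, was at 13.9 ± 2.47 FPKM in dopaminergic neurons and 45.5 ± 7.03 FPKM in whole midbrain, and its exons overlap 6330562C20Rik on the opposite strand by 144 bases. Elovl7, a fatty acid elongase, was at 3.22 ± 0.493 FPKM in dopaminergic neurons and 10.8 ± 1.25 FPKM in whole midbrain. The sulfotransferase Gal3st1, which makes sulfatide, and the desaturase Degs1 did not pass the test (log2 changes -0.07 and -0.15). The median percent left of this list was 55.3, 48.8, 51.4 and 59.7 in dopaminergic libraries 1 to 4, and that of the 41 mature genes with a whole midbrain mean of 1 FPKM or more 15.3, 20.9, 18.4 and 23.9.

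**Figure D3:**
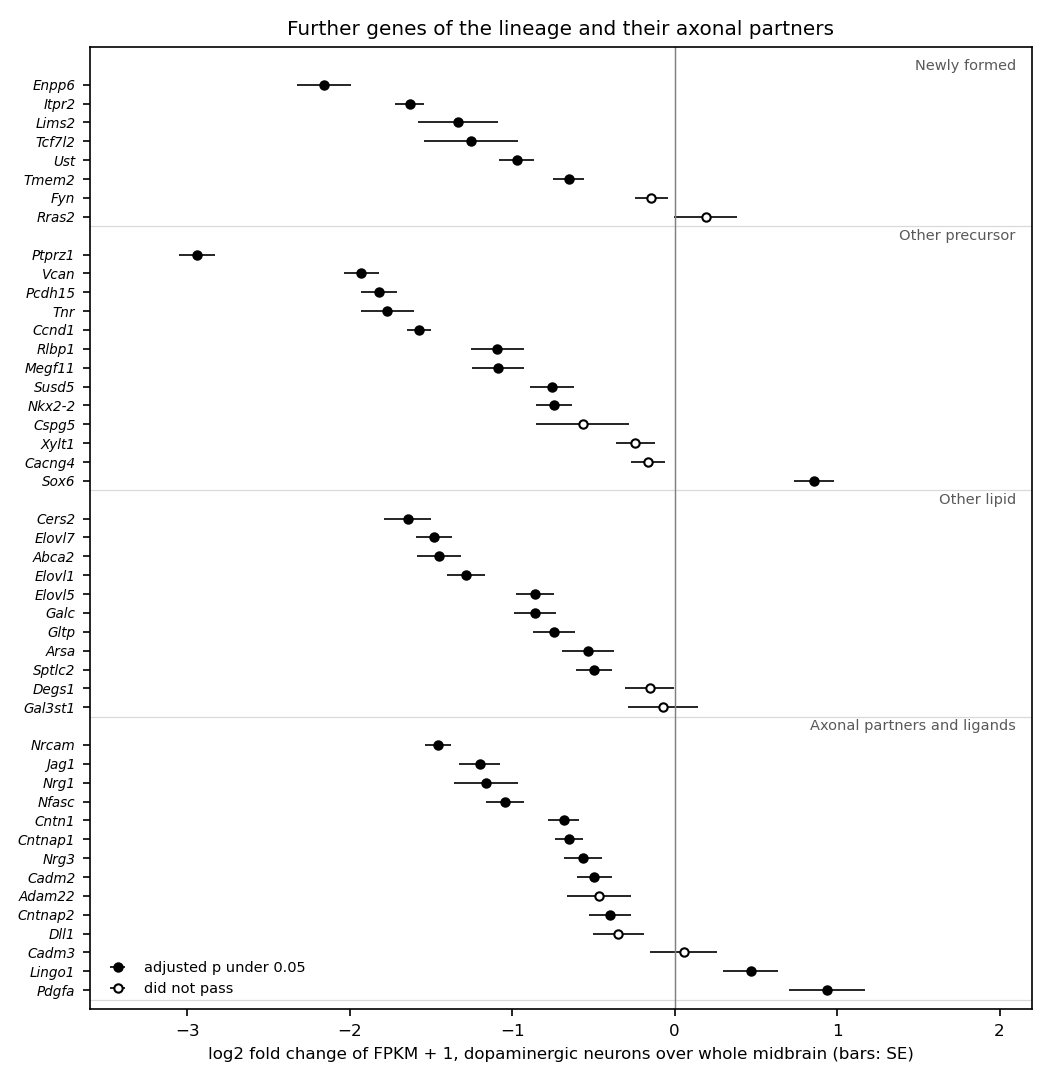
Log2 change of log2(FPKM + 1), dopaminergic neurons minus whole midbrain, for the tested genes of 4 further lists, with 1 point per gene, bars for the SE, and filled points for an adjusted p under 0.05. Filled points to the right of 0 are those of Sox6, Pdgfa and Lingo1.

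Of 15 further precursor genes, 13 passed the filter, and 9 of these were lower and 1 was higher, with a median log2 change of -1.09. Ptprz1, a receptor phosphatase, was at 5.09 ± 0.393 FPKM in dopaminergic neurons and 46.1 ± 6.41 FPKM in whole midbrain. Vcan, versican, was at 0.572 ± 0.120 FPKM in dopaminergic neurons and 5.002 ± 0.665 FPKM in whole midbrain. The higher gene was Sox6, a transcription factor that is known from dopaminergic neurons too, at 6.30 to 8.35 FPKM in dopaminergic libraries and 2.62 to 4.19 FPKM in whole midbrain. Its groups did not overlap, but with TPM Sox6 did not pass the test (log2 change 0.30; adjusted p = 0.182, limma). Of 11 genes of newly formed oligodendrocytes, 8 passed the filter, and 6 of these were lower and 0 were higher. Enpp6, a choline phosphodiesterase that marks cells starting to myelinate, was at 0.765 ± 0.347 FPKM in dopaminergic neurons and 6.87 ± 1.48 FPKM in whole midbrain. Itpr2, an intracellular calcium channel, was at 0.331 ± 0.0528 FPKM in dopaminergic neurons and 3.13 ± 0.280 FPKM in whole midbrain.

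Genes known from the axon's side of the contact with oligodendrocytes gave a mixed picture. Whole midbrain also holds other cells, and which cells the RNA of these genes came from was not tested. Of 14 genes for axonal adhesion proteins and signals to the lineage, 9 were lower in dopaminergic neurons, 2 were higher and 3 did not pass the test. Of all genes tested, 36.0 percent were lower and 38.3 percent were higher. The median log2 change of the 14 was -0.53. Nrcam, an adhesion protein of nodes of Ranvier, was at 11.2 ± 0.448 FPKM in dopaminergic neurons and 32.7 ± 3.02 FPKM in whole midbrain. Jag1, a Notch ligand, was at 0.169 ± 0.142 FPKM in dopaminergic neurons and 1.69 ± 0.326 FPKM in whole midbrain. Pdgfa, the ligand of the precursor receptor PDGFRA, was higher, at 38.7 to 46.1 FPKM in dopaminergic libraries, against 17.8 to 42.6 FPKM in whole midbrain. Its groups overlapped through whole midbrain library 2 alone, without which whole midbrain was at 17.8 to 19.3 FPKM. For Pdgfa the log2 change was 0.94 (adjusted p = 0.00401, limma) with that library and 1.17 without it, but with TPM it was 0.27 (adjusted p = 0.167). Exons of Pdgfa overlap 6330403L08Rik on the opposite strand by 813 bases. Lingo1, a receptor component that holds back myelination, was at 20.04 to 28.0 FPKM in dopaminergic libraries and 10.6 to 19.0 FPKM in whole midbrain (log2 change 0.47; adjusted p = 0.0288, limma), and with TPM its direction turned, at -0.21.

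Genes of Schwann cells, which myelinate peripheral nerves, were low in both groups. The 5 genes summed to 1.07 to 1.62 FPKM in dopaminergic libraries and 1.77 to 2.76 FPKM in whole midbrain, and none passed the filter. Pmp2 was listed at 0 in all 4 dopaminergic libraries and in whole midbrain libraries 1, 2, 4 and 5.

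Markers of the other cell types of the midbrain were lower in dopaminergic neurons as well. All tested markers of astrocytes (11 of 11), microglia (10 of 10), endothelial cells (10 of 10) and other neurons (6 of 6) were lower, against 36.0 percent of all genes tested. The median percent left of the astrocyte list was 4.56, 5.52, 5.16 and 7.51 in dopaminergic libraries 1 to 4, and that of the microglial list 5.11, 9.43, 7.48 and 7.80. For endothelial markers it was 1.013, 1.59, 0.649 and 2.59, and for markers of other neurons 13.0, 17.3, 15.4 and 16.6. The 27 myelin genes, at 14.3 to 22.6 percent, thus stood above the astrocyte, microglial and endothelial lists in every dopaminergic library and above the list of other neurons in 3 of the 4. The lists differ in length and in their levels, and the difference between lists was not tested. Gja1, the astrocyte connexin, averaged 1.37 ± 0.425 FPKM in dopaminergic neurons and 39.9 ± 1.97 FPKM in whole midbrain. Ctss, cathepsin S of microglia, averaged 1.69 ± 0.506 FPKM in dopaminergic neurons and 48.4 ± 6.15 FPKM in whole midbrain.

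**Figure D4:**
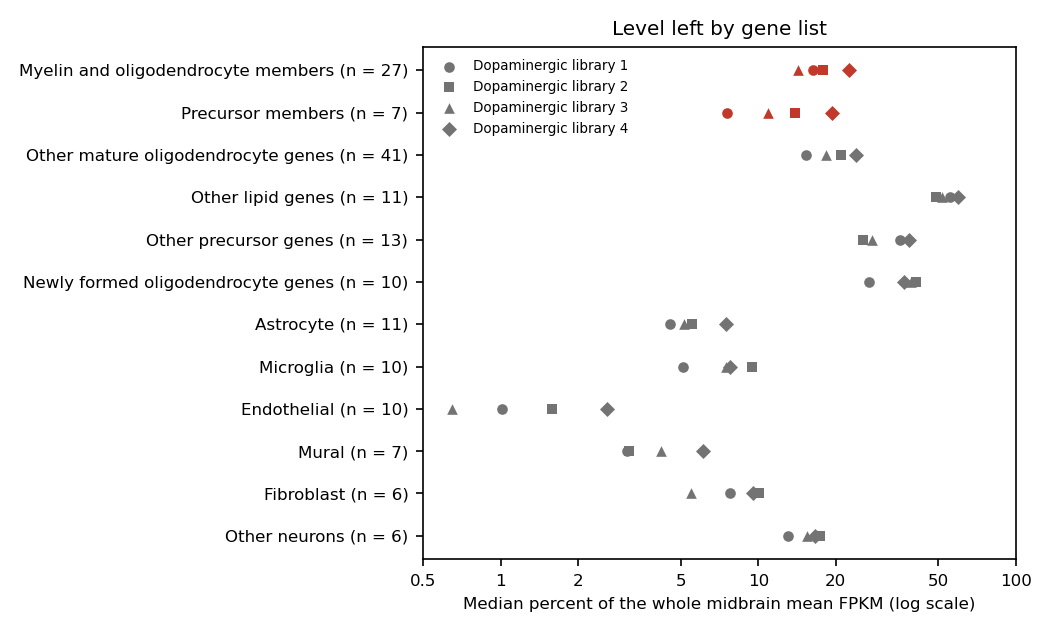
Median percent of the whole midbrain mean FPKM (logarithmic axis) that each dopaminergic library held for the 27 myelin genes, the 7 precursor genes and the other lists, with 1 point per library. The myelin genes lie at 14.3 to 22.6 percent, above the astrocyte, microglial and endothelial lists in all 4 libraries.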

How the data were processed

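RNA was measured in 4 libraries of midbrain dopaminergic neurons and 5 libraries of whole midbrain. Per the labels' protocols, cDNA was amplified from nanogram amounts of RNA, sheared and read from 1 end. The authors deposited 1 FPKM value per gene and library. TopHat2 2.0.8, Cufflinks 2.1.1 and the mm10 build are named in the submitters' processing notes. Annotation, options and use of strand: not given in the sources used here. FPKM are not counts, so limma 3.58.1 in R 4.3.3 was used on log2(FPKM + 1), with a mean-variance trend, for the 13106 genes that averaged 1 FPKM or more, two-sided, with 7 residual degrees of freedom, and Benjamini-Hochberg adjustment. The procedure was run on simulated data with independent noise, few changed genes and no outlying library. That run does not show how it behaves on data like these. An FPKM does not carry its depth, which was only estimated, from single-exon genes with an assumed mean fragment of 200 bases, so no counting interval is given.

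The percent left is 100 times the FPKM in a dopaminergic library over the mean of the whole midbrain libraries. The 34 genes and all further lists were chosen with earlier results of these data known, so their counts are descriptions read against all genes tested. All 34 are named. From each further list, the 2 called genes with the largest change and up to 2 called genes that went against most of their list are named, and other names were added after their values were seen. Of the further lists, 1 gene is not reported here and is left out of their counts. Alternatives were other pseudocounts and filters, other scalings, no trend, a replicate block and leaving out each library. Gene spans are those of the deposited table, counted from 1, and exonic overlaps of at least 100 bases come from the GENCODE annotation of GRCm38. Promoters are RefSeq's, and the genes without one there are named only.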

Additional observations from a re-analysis of the deposited data

Results flagged for a closer look

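In whole midbrain, library 2 lay far from the other 4 libraries for 5 of the 34 genes, each time above them. Enpp2 was at 207 FPKM in that library and at 113 to 133 FPKM in the others, and Olig1 was at 65.8 FPKM against 32.3 to 37.4 FPKM. Nkx6-2 was at 12.1 FPKM in library 2 and 4.35 to 6.32 FPKM in the others. Gpr37 was at 39.5 FPKM against 21.0 to 23.9 FPKM, and Gsn at 21.1 FPKM against 7.29 to 9.65 FPKM. They were found among 68 groups checked with Dixon's criterion, which chance alone meets in about 1 in 20 groups. The share of all genes tested that meet it was not counted, and library 2 was above the other 4 for 45.3 percent of them. The 5 are thus not read as a trait of these genes. No dopaminergic library was far from its group by this criterion for any of the 34 genes.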

How the results depend on the processing

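Over all genes, 4717 were lower and 5014 higher. With TPM these were 7686 and 2067. TPM divides by the library's FPKM sum without small RNA and mitochondrial genes. Over all rows, that sum was 506466 to 521822 in dopaminergic libraries and 309275 to 409130 in whole midbrain. With a minimum mean of 5 FPKM 2493 genes were lower, of 8669 tested. Leaving out 1 library in turn gave 4445 to 4974 lower and 4699 to 5654 higher genes. Of the 27 myelin genes 26 were lower under the other settings run, except for 27 with TPM and 25, of 26 tested, with a minimum mean of 5 FPKM; leaving out 1 library gave 26 to 26. The 7 lower precursor genes became 2, of 2 tested, with a minimum mean of 5 FPKM, 6 with quantile normalization, and 5 to 7 without 1 library, since Neu4, or Neu4 and Bmp4, then fell under the filter. The median percent left of the myelin genes (17.7) was 11.0 with TPM and 16.1 to 18.9 without 1 library. That of the precursor genes (12.9) was 7.89 with TPM, 24.6 over the 3 genes with a whole midbrain mean of at least 5 FPKM, and 10.8 to 14.7 without 1 library. Directions turned for Lingo1 (-0.21) with TPM and for Foxj1, an ependymal gene, with quantile normalization (0.0035). Why these values moved was not tested. Depth could only be estimated, and it limits genes near or under 1 FPKM, such as Bmp4 and Neu4. Cspg4 was also under 1 FPKM in the dopaminergic libraries, but its exons are longer. They span 11931 bases, against 2248 for Bmp4, so the same FPKM stands for more reads.

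With the replicate number as a block, 4355 genes were lower and 4554 higher, and 26 myelin and 7 precursor genes were lower. The deviations of same-numbered libraries from their group means correlated at -0.0389, -0.0498, 0.0067 and 0.0190. No label says whether equal numbers mark a shared animal or day. These correlations cannot decide it, since a shared animal need not leave a shared deviation.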
